A study of Mus musculus with 9 samples.

Results

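The immediate early genes described here are 10 genes of the AP-1 and EGR transcription factor groups and their companions, Fos, Fosb, Fosl1, Fosl2, Jun, Junb, Atf3, Egr1, Ier2 and Ier3. They are 10 of the 46517 genes in each deposited table, found by gene symbol, and each symbol matched exactly 1 row. The set was proposed as a known family after earlier results of these samples had been seen, and it counts as selected on the same expected counts and fold changes that are given below, so these are a description of the 10 genes without a test. RNA sequencing had been performed on mouse duodenal organoids, epithelial cultures grown in a basement membrane gel, 72 hours or so after adenoviral transduction. There were 9 samples in 3 groups of 3, each group holding replicates 1, 3 and 4, and the question the groups address is how the hypoxia-inducible factors HIF1 and HIF2 change expression in intestinal epithelium.

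All 9 samples came from wild type C57BL/6J organoids, were kept at 5% O2 and received 50 viral particles per cell as single cells. The control group received Ad-GFP, an adenovirus in which the CMV promoter drives green fluorescent protein. The Ad-hHIF2 and Ad-hHIF1 groups (the latter spelled Adeno-HhHIF1 in the labels) received adenoviruses carrying human HIF2 or human HIF1 with proline-to-alanine substitutions that prevent their degradation through VHL. After transduction every culture grew in serum-containing medium conditioned by L-WRN cells (a source of Wnt3a, R-spondin 3 and noggin) with the ROCK inhibitor Y27632, the TGF-β receptor inhibitor SB431542 and nicotinamide. Overexpression was therefore transient and constitutive, and all groups had been dissociated, infected and exposed to growth factors. The study calls its replicates biological, but the labels do not say whether they came from separate mice or cultures, so the errors below measure the spread between these samples, which may be partly technical.

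Immediate early genes are transcribed within minutes of a growth factor, stress or wounding signal without new protein synthesis, largely through MAP kinases that act on serum response factor and its partners. Fos family and Jun family proteins pair to form AP-1, which binds short palindromic DNA elements, and EGR1 is a zinc finger factor that binds GC-rich elements. In intestinal epithelium they are known for their response to mitogens, injury and dissociation, and their transcripts usually decay quickly.

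The libraries held 21722618 to 51119041 expected counts, and the 10 genes had between 68 (Fosb) and 25336 (Junb) expected counts in a sample. Mouse Epas1, the gene of HIF2, stood at 1.77 ± 0.382 CPM (expected counts scaled to a common library size with TMM factors, mean ± SD, n = 3) in Ad-GFP, 672.1 ± 78.1 in Ad-hHIF2 and 2.1 ± 0.835 in the Ad-hHIF1 samples. Hif1a stood at 219.7 ± 28.0, 226.9 ± 16.7 and 309.0 ± 9.96 CPM (SD, n = 3 each). How reads of the human transgenes were assigned to these mouse genes was not tested. 1 library stood apart, Ad-hHIF1 replicate 3, where 16.0% of the total came from the satellite-like Gm10800 and Gm26870, against 0.433% to 4.28% in the other 8 samples. Of the labelled tissue's markers, the 6 epithelial genes summed to between 3213 and 3730 CPM per sample, carried by keratins and Cdh1, whereas Epcam did not exceed 3.8 CPM and Vil1 did not exceed 4.94 CPM. The 5 stem cell markers (Lgr5, Olfm4, Ascl2, Smoc2 and Axin2) summed to at most 2.01 CPM, and Defa24, Defa17, Ang4 and Gip were at 0 in every sample. The 7 enterocyte markers summed to 0.75 to 1.11 CPM in Ad-GFP, 2.97 to 3.65 in Ad-hHIF2 and 0.669 to 1.75 in the Ad-hHIF1 samples. Apoa4 was at a mean of 0.00924, 2.49 and 0.017 CPM in the same order and made up most of the Ad-hHIF2 sum. Alpi, Apoa1 and Sis also had a higher mean in Ad-hHIF2 than in Ad-GFP, with Apoa1 at 0.433 against 0.227 CPM. Fabp1, Fabp2 and Lct had a lower mean in Ad-hHIF2 than in Ad-GFP, with Fabp2 at 0.148 against 0.502 CPM and Lct at 0.0803 against 0.145 CPM. Of the 5 goblet cell markers 3 had a mean of at least 1 CPM. The 5 summed to 6.53 to 9.9 CPM in Ad-GFP, 3.57 to 4.22 in Ad-hHIF2 and 5.18 to 6.96 in the Ad-hHIF1 samples. In that order of groups Muc2 was at a mean of 5.86, 1.71 and 3.69 CPM and Clca1 at 1.31, 0.882 and 1.27 CPM. Spink4 went the other way in Ad-hHIF2, at 0.87, 1.23 and 1.07 CPM. The part of these markers' cell types in the immediate early gene levels was not tested. Fibroblast markers summed to 9.53 to 19.1 CPM over all samples, and immune markers to 12.7 to 17.5 CPM in Ad-GFP, 15.5 to 20.7 in Ad-hHIF2 and 10.4 to 13.1 in the Ad-hHIF1 samples, mostly Cd68. The immune markers were mixed. Cd68, Csf1r and Cd79a had a higher mean in Ad-hHIF2 than in Ad-GFP, with Cd68 at 13.6 against 10.6 CPM and Csf1r at 3.38 against 1.17 CPM. Ptprc, Lyz2 and Cd3e had a lower one, with Ptprc at 0.0425 against 0.769 CPM and Lyz2 at 1.32 against 2.4 CPM. In bulk RNA, fewer cells of a type and less RNA per cell cannot be told apart.

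Promoter sequences are shown for 3 of the genes whose levels differed most between Ad-hHIF2 and Ad-GFP organoids, so that their content can be read beside the levels. RefSeq windows (GRCm38.p6, 250 bases before to 50 after a gene's start) were matched for 7 of the 10 genes by symbol, and Egr1, Fosl1 and Ier2 were not matched. Each stretch below is the part of that window upstream of the start and outside the exons of the GENCODE M21 annotation, written 5′ to 3′ on the gene's strand, with motif matches in capitals. Fosl2 was matched and called higher, but all 250 upstream bases of its window lie in annotated exons, so it has no stretch to show. The Ier3 stretch is chr17:35821463-35821683 on the plus strand and its capitals mark ACGTG. The Atf3 stretch is chr1:191183341-191183583 on the minus strand, inside the annotated gene, and its capitals mark GCGTG or its complement CACGC. The Fosb stretch is chr7:19310052-19310295 on the minus strand and its capitals mark GCGNGGGCG, the element bound by EGR proteins.
Ier3: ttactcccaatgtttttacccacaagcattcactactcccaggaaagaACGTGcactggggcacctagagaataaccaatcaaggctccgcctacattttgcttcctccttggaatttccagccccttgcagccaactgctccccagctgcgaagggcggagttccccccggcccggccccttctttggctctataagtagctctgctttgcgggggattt
Atf3: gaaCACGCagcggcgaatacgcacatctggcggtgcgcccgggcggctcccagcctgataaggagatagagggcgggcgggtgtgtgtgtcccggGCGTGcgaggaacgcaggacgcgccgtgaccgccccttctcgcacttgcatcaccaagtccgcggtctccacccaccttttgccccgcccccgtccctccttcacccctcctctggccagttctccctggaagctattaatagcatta
Fosb: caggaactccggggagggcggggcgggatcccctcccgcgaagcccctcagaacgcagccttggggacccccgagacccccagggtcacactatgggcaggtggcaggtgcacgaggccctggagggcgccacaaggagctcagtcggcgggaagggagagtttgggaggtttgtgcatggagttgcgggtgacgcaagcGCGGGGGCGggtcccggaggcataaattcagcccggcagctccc

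Both strands of each 300-base window were searched for 6 motifs. ACGTG and GCGTG are the cores of the hypoxia response element, the sequence HIF complexes bind. ACGTG was in the window of Ier3 (base -202 relative to the start) and of 0 of the other 6 matched genes, against 19.6% of all 32851 windows. GCGTG was in the windows of Atf3, Fos, Fosb and Junb, 4 of 7 genes, against 32.4% of all windows. The EGR element GCGNGGGCG was in the windows of 2 of 7 genes, against 5.55% of all windows. Its matches were in Fosb (from base -50) and Fosl2 (from base -79, in annotated exon bases). An EGR match with T at its N would also hold GCGTG, and neither of these did. The AP-1 element TGANTCA, the cyclic AMP response element TGACGTCA and the CArG box bound by serum response factor were in 0 of the 7 windows, against 7.81%, 1.79% and 1.63% of all windows. A match is a description of letters in this window and no match says nothing of elements farther away.

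In Ad-hHIF2 compared with Ad-GFP organoids the 10 genes fell into a higher set, a lower set and a little-changed set. Ier3 and Fosl2 were at least 2-fold higher, Egr1, Atf3 and Fosb at least 2-fold lower, Junb was higher by less than 2-fold, Fos, Jun and Ier2 were lower by less than 2-fold, although between 0.09 and 0.14 above 0 on both log2 TPM scales, and the Fosl1 samples overlapped. All 10 genes passed the filter on low counts in the 3 comparisons made. In edgeR's quasi-likelihood test 2 were called higher and 3 lower, a call being a change of 2-fold or more with an adjusted p under 0.05, where 2.90% of the 14987 tested genes were called higher and 3.83% lower. At an adjusted p below 0.05 alone the count was 9 of 10 in edgeR, against 29.5% of all genes, and it was 8 with DESeq2, 3 with limma on log2(TPM + 1) and 4 on log2(TPM + 0.1). In 9 of 10 the range of the HIF2 samples was apart from that of the controls, against 45.8% of all genes. The median log2 fold change of the 10 genes was -0.32, beside -0.01 over all tested genes. These counts describe genes that had been selected with these values known. The lower calls depended on the setting. With library totals in place of TMM factors Egr1 at -2.07 and Atf3 at -1.17 were still called and Fosb at -0.80 was not, and with median-ratio factors all 3 were called. The TPM settings change the tool, the pseudocount and the filter together with the scaling. On log2(TPM + 1) limma called 0 of the 10 lower, with Egr1 at -0.61, Atf3 at -0.74 and Fosb at -0.05, and on log2(TPM + 0.1) it called 1 lower, Egr1 at -1.59, with Atf3 at -0.94 and Fosb at -0.29, and 3 higher, Junb among them at 1.10. Over all genes the calls were 435 higher and 574 lower with TMM factors, 800 and 440 with library totals, 208 and 52 on log2(TPM + 1) and 718 and 184 on log2(TPM + 0.1).

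**Figure D1:**
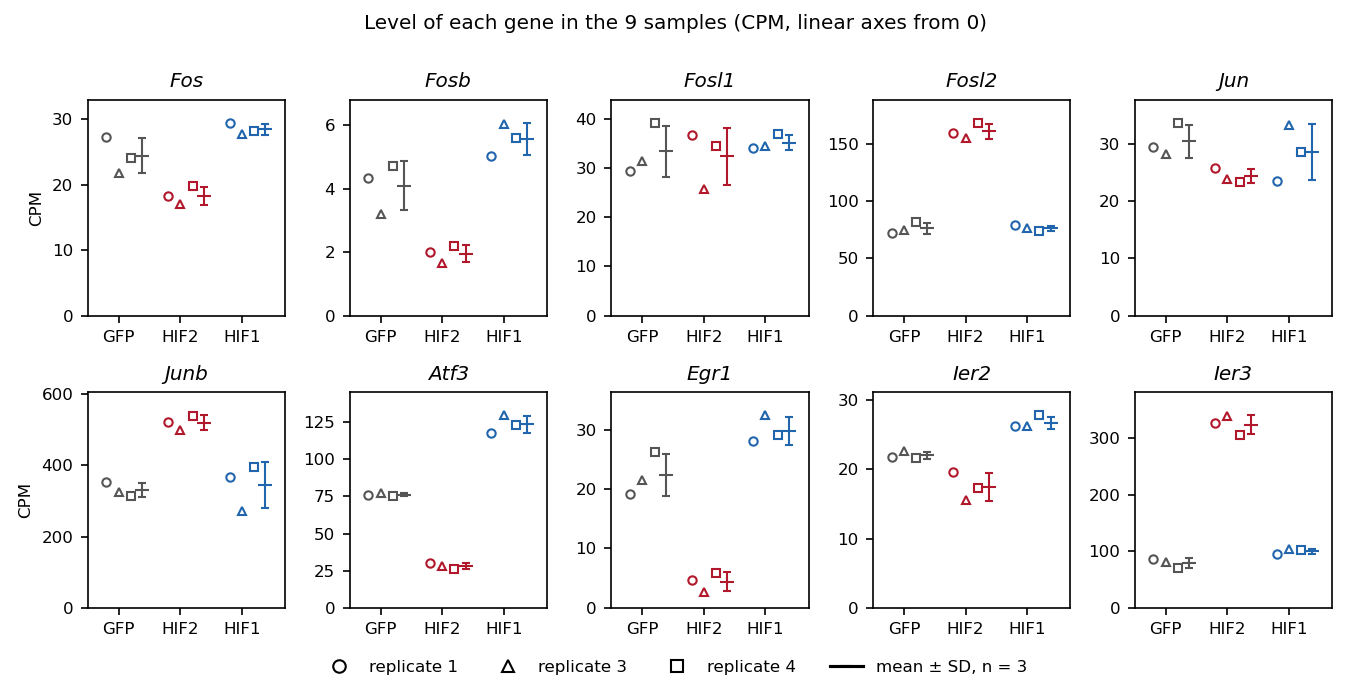
Level of each gene in CPM (expected counts scaled to a common library size with TMM factors, y axis, linear and starting at 0) in Ad-GFP, Ad-hHIF2 and Ad-hHIF1 organoids (x axis), with a symbol per replicate and a bar for the mean ± SD of 3 samples. Ier3, Fosl2 and Junb have their Ad-hHIF2 samples above all other samples, Egr1, Atf3, Fosb, Fos and Ier2 have them below all other samples, and Fosl1 overlaps in all groups.

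Among the Fos family, Fosl2 (FRA2), a family member without a strong transactivation domain that is commonly expressed later than Fos, was the one that was higher under HIF2. It was at 72.1, 75.0 and 82.0 CPM in Ad-GFP replicates 1, 3 and 4, at 160.0, 155.1 and 168.7 CPM in Ad-hHIF2 and at 78.9, 76.4 and 74.1 CPM in Ad-hHIF1 organoids. The Ad-hHIF2 samples were about equal to each other and all above the other 6, which overlapped. Relative to Ad-GFP, Fosl2 was 2.12-fold higher under HIF2, or 1.08 (standard error 0.081) on the log2 scale. Fosl2 lies on the plus strand of chromosome 5 from 32135801 to 32157842 in GRCm38.

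Fos, the prototype of the family, was at 27.2, 21.8 and 24.1 CPM in Ad-GFP, 18.2, 17 and 19.7 CPM in Ad-hHIF2 and 29.4, 27.7 and 28.1 CPM in Ad-hHIF1 organoids. Every Ad-hHIF2 sample was below every Ad-GFP sample and every Ad-hHIF1 sample above. The gaps, from 19.7 to 21.8 CPM and from 27.2 to 27.7 CPM, were both less than the SD of the controls (2.68 CPM). On the log2 scale Fos was at -0.41 (standard error 0.102) relative to Ad-GFP under HIF2 and at 0.22 (standard error 0.0958) under HIF1.

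Fosb, a close relative of Fos that is induced by the same stimuli, was the least abundant of the 10 genes. It was at 4.34, 3.21 and 4.7 CPM in Ad-GFP, 1.99, 1.67 and 2.2 CPM in Ad-hHIF2 and 5.03, 6.04 and 5.6 CPM in Ad-hHIF1 organoids, and the 3 groups did not overlap. Its log2 fold change in Ad-hHIF2 organoids was -1.06 (standard error 0.228), just past the 2-fold threshold, which Plaur (-1.01) and Ccna2 (-1.02) of the related genes below also passed narrowly and Arc (-0.94) missed. Without Ad-GFP replicate 4 or Ad-hHIF2 replicate 3 the value for Fosb was -0.95 or -0.96 and below 2-fold.

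Fosl1 (FRA1), which in epithelia is associated with migration and invasion, was at 29.4, 31.5 and 39.2 CPM in Ad-GFP, 36.8, 25.8 and 34.5 CPM in Ad-hHIF2 and 34.1, 34.5 and 36.9 CPM in Ad-hHIF1 organoids. The groups overlapped in all 3 comparisons, and the log2 fold change of Ad-hHIF2 over Ad-GFP was -0.04 (standard error 0.148). Its sign depended on single samples, and it was 0.10 without Ad-GFP replicate 4 and also 0.10 without Ad-hHIF2 replicate 3. Fosl1 overlaps Ccdc85b on the opposite strand, which had a mean of 3.01 CPM. The strandedness of the libraries is not given in the sources used here, so reads in such overlaps cannot be assigned to a strand.

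Of the Jun family, Junb, which can oppose Jun in some promoters and partners the Fos proteins in others, was the most abundant. It was at 352.4, 324.2 and 314.0 CPM in Ad-GFP, 520.6, 497.1 and 538.7 CPM in Ad-hHIF2 and 366.5, 270.5 and 394.7 CPM in Ad-hHIF1 organoids. The Ad-hHIF2 samples were the 3 highest, and the Ad-hHIF1 samples ranged on both sides of the controls, with the lowest in replicate 3, the library rich in satellite-like reads. Relative to Ad-GFP, Junb was at 0.66 (standard error 0.0824) on the log2 scale under HIF2 and at 0.06 (standard error 0.141) under HIF1. Junb (chromosome 8, 84974484 to 84978718, minus strand) overlaps Prdx2 on the opposite strand, which had a mean of 176.7 CPM.

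Jun, the founding member and the usual partner of Fos, was at 29.5, 28.2 and 33.7 CPM in Ad-GFP, 25.8, 23.9 and 23.4 CPM in Ad-hHIF2 and 23.6, 33.3 and 28.7 CPM in Ad-hHIF1 organoids. The Ad-hHIF2 samples were all below the controls, by a log2 fold change of -0.32 (standard error 0.0863), and overlapped with Ad-hHIF1. Only Jun among the 10 had non-whole expected counts, in 2 of 9 samples. Its overlapping antisense gene Junos had a mean of 0.117 CPM.

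Atf3, a stress-induced factor of the ATF/CREB family that pairs with Jun proteins and often acts as a repressor, had the smallest spread relative to its mean of the 10 genes in Ad-GFP organoids (coefficient of variation 1.26%), though not in the other groups. It was at 76.2, 77.0 and 75.1 CPM in Ad-GFP, 30.1, 28.0 and 26.2 CPM in Ad-hHIF2 and 117.7, 129.6 and 122.8 CPM in Ad-hHIF1 organoids. The 3 groups were apart by far more than their spread, with a coefficient of variation of 1.26% in Ad-GFP, where the median over 9247 gene symbols (1 entry each) with a mean of at least 5 CPM was 8.74%. Atf3 was 2.7-fold lower than Ad-GFP in Ad-hHIF2 (log2 fold change -1.43, standard error 0.072) and 1.62-fold higher in Ad-hHIF1 organoids (log2 fold change 0.70, standard error 0.0713). In GRCm38 it spans 191170296 to 191218039 on the minus strand of chromosome 1.

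Egr1, a mitogen-induced zinc finger factor, had the lowest Ad-hHIF2 levels relative to the controls. It was at 19.2, 21.5 and 26.2 CPM in Ad-GFP, 4.71, 2.75 and 5.82 CPM in Ad-hHIF2 and 28.0, 32.4 and 29.0 CPM in Ad-hHIF1 organoids. The groups did not overlap, although the Ad-hHIF2 samples differed among themselves with a coefficient of variation of 35.2%, against a median of 6.9% over genes in that group. The log2 fold change was -2.35 (standard error 0.245), or 5.09-fold lower, in Ad-hHIF2 and 0.42 (standard error 0.124) in the Ad-hHIF1 samples.

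The 2 immediate early response genes that are not DNA-binding factors of these families went separate ways. Ier3, a stress-inducible protein linked to survival and ERK signalling, was at 86.6, 81.3 and 70.6 CPM in Ad-GFP, 325.6, 338.8 and 305.9 CPM in Ad-hHIF2 and 94.9, 103.6 and 101.5 CPM in Ad-hHIF1 organoids. Its Ad-hHIF2 level was 4.08-fold higher than in Ad-GFP (log2 fold change 2.03, standard error 0.097), the largest increase of the 10 genes, and its Ad-hHIF1 samples were also all above the controls (0.33, standard error 0.0924). Ier3 lies on the plus strand of chromosome 17 from 35821684 to 35822923.

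Ier2, a nuclear protein induced by growth factors, was at 21.8, 22.6 and 21.6 CPM in Ad-GFP, 19.6, 15.6 and 17.3 CPM in Ad-hHIF2 and 26.2, 26.2 and 27.8 CPM in Ad-hHIF1 organoids. The 3 groups did not overlap, with log2 fold changes over Ad-GFP of -0.32 (standard error 0.0919) and 0.28 (standard error 0.0735).

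In Ad-hHIF1 compared with Ad-GFP organoids 0 of the 10 genes were called by edgeR's quasi-likelihood test, as were 0% of the 15233 tested genes. Without the filter on low counts edgeR called 100 genes higher and 38 lower of 29714. Of the 10 genes 0 were among them, and Atf3 and Egr1 had an adjusted p of 1.43e-07 and 0.0262 in that edgeR fit at less than 2-fold, with log2 fold changes of 0.69 and 0.42. Over all genes 2 were called higher with all 9 samples in 1 edgeR fit, and limma called 2 lower on log2(TPM + 0.1). At an unadjusted p below 0.05 there were 5 of the 10 genes, against 8.59% of all genes, and in 6 of 10 every Ad-hHIF1 sample lay above every Ad-GFP sample, against 17.4% of all genes that did not overlap in either direction. DESeq2 and limma on log2(TPM + 1) or log2(TPM + 0.1) also called 0 of the 10 at both thresholds, while DESeq2 gave 2 of them, Atf3 and Ier3, an adjusted p below 0.05 at less than 2-fold. The genes that were apart were Atf3, Fosb, Egr1, Ier3, Ier2 and Fos, with log2 fold changes of 0.70, 0.45, 0.42, 0.33, 0.28 and 0.22. In all of these but Ier3 every Ad-hHIF2 sample also lay below every Ad-GFP sample, and 1.45% of the 14731 genes tested in both comparisons were placed in this way. As the 10 genes were chosen on these samples, nothing is read from that share. The other 4 genes overlapped, with log2 fold changes of 0.08 for Fosl1, 0.06 for Junb, 0.00 for Fosl2 and -0.09 for Jun. The median of the 10 was 0.25, beside 0.00 over all tested genes. Atf3 had the smallest p of all genes in this comparison, and its adjusted p did not reach the threshold. With all 9 samples in 1 edgeR fit it was below the threshold at less than 2-fold. Leaving out Ad-hHIF1 replicate 3, the library rich in satellite-like reads, left the calls at 0. That replicate was the highest Ad-hHIF1 sample for Egr1, Atf3, Fosb, Ier3 and Jun, and the lowest for Junb and Fos. This comparison shares its controls with the Ad-hHIF2 comparison, so the fold changes over Ad-GFP are placed side by side and no relation between them is drawn.

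**Figure D2:**
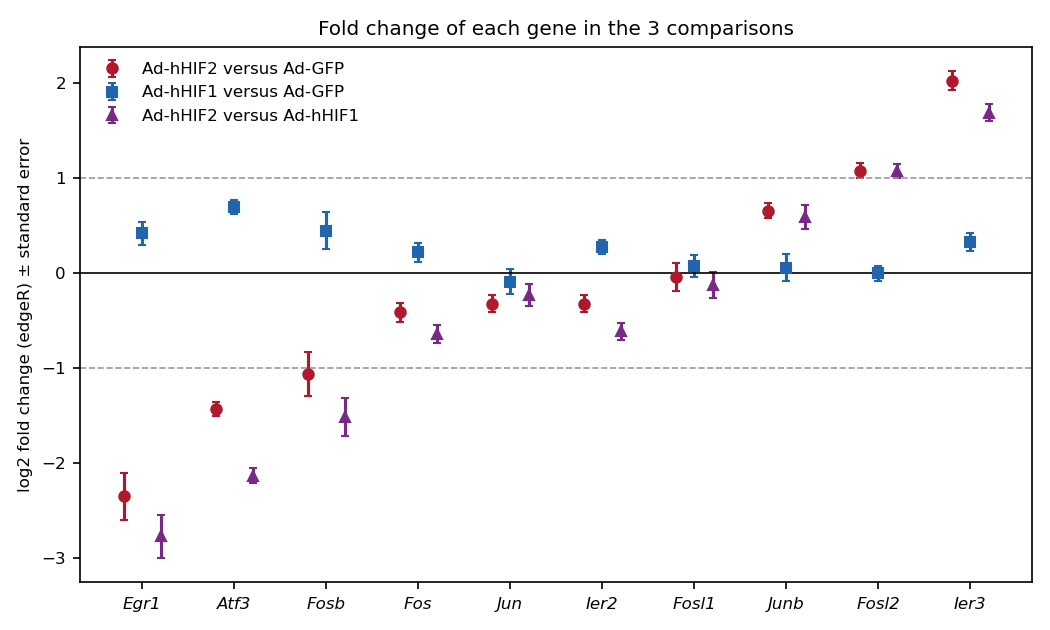
Log2 fold change with its standard error (y axis, edgeR) of each gene (x axis) for Ad-hHIF2 versus Ad-GFP, Ad-hHIF1 versus Ad-GFP and Ad-hHIF2 versus Ad-hHIF1, with dashed lines at a 2-fold change. The values for Ad-hHIF2 over Ad-GFP run from -2.35 for Egr1 to 2.03 for Ier3, those for Ad-hHIF1 over Ad-GFP from -0.09 for Jun to 0.70 for Atf3.

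The direct comparison of Ad-hHIF2 with Ad-hHIF1 organoids, fitted over all 9 samples, called 2 of the 10 genes higher (Ier3 and Fosl2) and 3 lower (Egr1, Atf3 and Fosb). Over all 15556 tested genes 2.42% were called higher and 3.70% lower, or 376 and 575 genes, against 538 and 482 with library totals, 122 and 18 on log2(TPM + 1) and 302 and 49 on log2(TPM + 0.1). On log2(TPM + 1) limma called only Ier3 higher and Atf3 lower of the 10, with Egr1 at -0.92, Fosb at -0.15 and Fosl2 at 0.99 below the call, and on log2(TPM + 0.1) Fosb at -0.73 was the 1 call lost. The fold changes that follow are from edgeR. Without the fold threshold 8 of 10 had an adjusted p below 0.05 in edgeR, against 25.8% of all genes, and the count was 8 with DESeq2 and 4 with limma on both TPM scales. In 8 of 10 the groups did not overlap, against 41.8% of all genes. Egr1 was 6.82-fold lower, at -2.77 on the log2 scale (standard error 0.229), and Atf3 was 4.39-fold lower, at -2.13 (standard error 0.0753). Fosb was at -1.51 (standard error 0.202), Ier3 at 1.69 (standard error 0.0908) and Fosl2 at 1.08 (standard error 0.0735). The uncalled genes with separate groups were Junb at 0.59, Fos at -0.64 and Ier2 at -0.61, whereas Jun at -0.23 and Fosl1 at -0.12 overlapped. The median of the 10 genes was -0.42, beside -0.01 over all genes. Leaving out any 1 of the 9 samples left these counts at 2 higher and 3 lower. With 3 samples a group, the smallest two-sided p that an exact permutation test allows for 1 gene is 0.10.

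Compared per length, as CPM per kilobase of effective length, the genes covered a wide range of abundance within each group. In Ad-GFP organoids Junb stood first at 194.0 ± 12.0 CPM per kb (SD, n = 3), followed by Ier3 at 80.1 ± 8.44, Atf3 at 41.5 ± 0.193 and Fosl1 at 21.3 ± 3.27. Fos, Ier2 and Fosl2 came next between 16.2 and 14.7 CPM per kb, each overlapping with its neighbour in that order, and Jun, Egr1 and Fosb (1.13 ± 0.214) were the lowest. In Ad-hHIF2 organoids Ier3 stood first at 325.6 ± 17.1 CPM per kb and Junb second at 304.8 ± 12.0, and their samples overlapped. Fosl2 was next at 29.0 ± 2.64, having been at rank 7 in the controls, and Atf3 was at rank 5 with 15.5 ± 1.44, overlapping with Fosl1 above it. In Ad-hHIF1 organoids Junb, Ier3 and Atf3 were the highest in the same order as in the controls, at 203.0 ± 36.7, 101.8 ± 5.69 and 67.5 ± 4.17 CPM per kb. The neighbours Ier2 and Fos overlapped in that group, as did Egr1 and Jun.

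The composition of the AP-1 pool was expressed as each gene's share of its family's summed CPM per kb, a measure that library scaling does not affect. Fosl2 made up 26.9%, 28.8% and 27.2% of Fos family transcripts in the Ad-GFP samples, 45.7%, 46.5% and 45.5% in the Ad-hHIF2 samples and 26.8%, 26.1% and 22.4% in the Ad-hHIF1 samples. It was thus the largest component in each Ad-hHIF2 sample and below Fosl1 in each of the other 6. The mean share of Fosl1 was 39.7 ± 3.33% in Ad-GFP, 32.4 ± 2.69% in Ad-hHIF2 and 39.6 ± 1.36% in the Ad-hHIF1 samples (SD, n = 3 each). The share of Fos was 30.5 ± 3.45%, 20.8 ± 2.21% and 32.6 ± 1.13%, and Fosb 2.11 ± 0.322%, 0.853 ± 0.0675% and 2.71 ± 0.198%, in the same order of groups. The summed Fos family level was 53.3 ± 3.84 CPM per kb in Ad-GFP, 63.2 ± 6.36 in Ad-hHIF2 and 56.9 ± 1.23 in the Ad-hHIF1 samples. Its samples overlapped between Ad-hHIF2 and the controls, whereas those of each gene's share did not.

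Within the Jun family, Junb made up 89.1 ± 1.41% in Ad-GFP, 94.3 ± 0.684% in Ad-hHIF2 and 90.6 ± 1.37% in the Ad-hHIF1 samples (SD, n = 3 each). Jun made up 4.6 ± 0.559%, 2.47 ± 0.158% and 4.35 ± 1.5%, and Jund, a constitutively expressed relative that is not an immediate early gene, 6.27 ± 0.851%, 3.2 ± 0.661% and 5.05 ± 0.27%. The Junb share was above every control in each Ad-hHIF2 sample, and the shares of Jun and Jund were below. The summed Jun family level was 217.6 ± 10.7 CPM per kb in Ad-GFP and 323.1 ± 13.9 in Ad-hHIF2 organoids without overlap, and 223.8 ± 37.9 in Ad-hHIF1 organoids. These shares follow from the same counts that chose the genes.

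**Figure D3:**
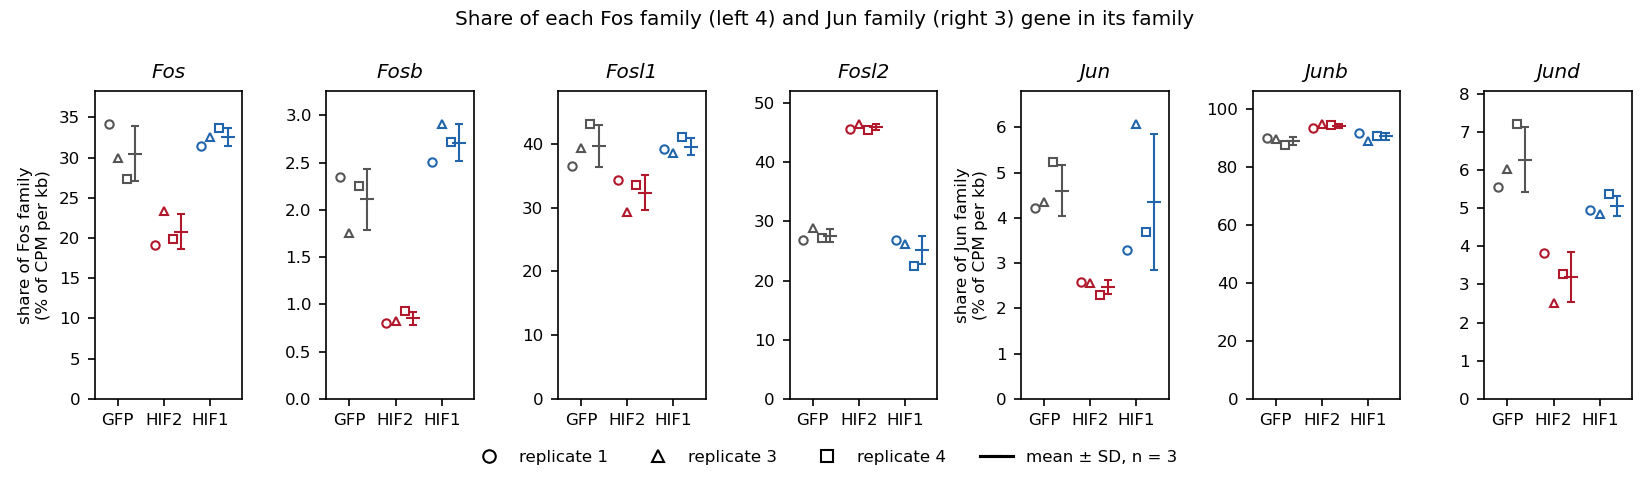
Share (y axis, percent of the family's summed CPM per kb, each axis starting at 0) of each Fos family gene and each Jun family gene in Ad-GFP, Ad-hHIF2 and Ad-hHIF1 organoids (x axis), with a symbol per replicate and a bar for the mean ± SD of 3 samples. The Fosl2 share is between 45.5% and 46.5% in the Ad-hHIF2 samples and between 22.4% and 28.8% in the other 6 samples.

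Genes related to these 10 were read from 10 lists of pathway partners, chosen with earlier results of these data known. In Ad-hHIF2 versus Ad-GFP organoids 2.90% of all 14987 tested genes were called higher and 3.83% lower, 29.5% had an adjusted p below 0.05 in either direction and 41.2% an unadjusted p below 0.05, and the counts of each list stand beside these shares. Of the other AP-1 and small Maf family genes, 9 of 12 were tested in Ad-hHIF2 versus Ad-GFP organoids, 1 was called higher and 0 lower, and 6 had an unadjusted p below 0.05. DESeq2 and limma on log2(TPM + 0.1) also called 1 higher and 0 lower, and limma on log2(TPM + 1) called 0 in either direction, with Maf at 0.34. The called gene was Maf, a large Maf factor, at 3.14, 3.69 and 3.3 CPM in Ad-GFP, 12.8, 9.85 and 9.25 CPM in Ad-hHIF2 and 3.11, 2.54 and 3.5 CPM in Ad-hHIF1 organoids. Its Ad-hHIF2 samples were well above the other 6, and its log2 fold change was 1.66 (SE 0.155, edgeR adjusted p = 0.000135). The list's median log2 fold change was -0.06, beside -0.01 over all tested genes, and it was 0.28 and 0.44 on log2(TPM + 1) and log2(TPM + 0.1).

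Of the other EGR, NR4A and immediate early genes, 30 of 32 were tested in Ad-hHIF2 versus Ad-GFP organoids. Egr3 and Egr4 did not pass the filter on low counts there, and in the direct comparison Egr3 was at -2.22 and not called. Egr2 and Tiparp rose, Klf10, Myc and Gadd45a fell, and at an adjusted p below 0.05 without the fold threshold 7 were higher and 13 lower, against 29.5% of all tested genes in either direction. The list's median was -0.28 in edgeR, 0 with library totals and 0.07 and 0.12 on the TPM scales, and under each of these 3 alternatives 0 of its genes were called lower. Egr2, the EGR gene of the list that was tested here, was at 0.574, 0.721 and 0 CPM in Ad-GFP, 2.47, 2.43 and 3.98 CPM in Ad-hHIF2 and 0.815, 0.175 and 1.38 CPM in Ad-hHIF1 organoids. It thus rose at a very low level (log2 fold change 2.64, SE 0.628, edgeR adjusted p = 0.0141), and without Ad-hHIF2 replicate 4 its log2 fold change was 2.40 and its adjusted p was 0.0587.

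Tiparp, a mono-ADP-ribosyltransferase induced by the aryl hydrocarbon receptor, rose from 96.4 ± 2.82 to 260.1 ± 13.9 CPM (SD, n = 3 each; log2 fold change 1.44, adjusted p = 5.11e-06, edgeR). Myc, the growth-promoting factor, was at 148.0, 143.0 and 147.5 CPM in Ad-GFP, 69.9, 56.7 and 69.4 CPM in Ad-hHIF2 and 132.4, 132.6 and 137.3 CPM in Ad-hHIF1 organoids. It fell by 1.16 on the log2 scale in Ad-hHIF2 organoids (SE 0.0931, edgeR adjusted p = 5.32e-05), with all groups apart from each other. Klf10, a TGF-β-inducible repressor, fell by 1.22 (adjusted p = 5.63e-05, edgeR) and the growth arrest gene Gadd45a by 1.06 (adjusted p = 3.7e-05, edgeR).

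The genes that transmit the signal to immediate early genes were read from 2 lists. Of the serum response factor and ternary complex factor genes, 0 of the 6 tested were called by edgeR, DESeq2 or limma, and 2 had an unadjusted p below 0.05 in edgeR. The most changed were the SRF coactivators Mkl2, at 0.43 on the log2 scale (edgeR adjusted p = 0.0159), and Mkl1, at 0.22 (edgeR adjusted p = 0.0676). Of the MAP kinase cascade genes, 0 of 23 were called by edgeR or DESeq2 and 6 had an unadjusted p below 0.05, whereas 1 was called higher with library totals in edgeR, and limma called 1 higher on log2(TPM + 1) and 2 on log2(TPM + 0.1). The p38 activator Map2k6 was at 34.4 ± 5.94 CPM in Ad-GFP and 62.9 ± 3.48 in Ad-hHIF2 organoids (SD, n = 3 each; log2 fold change 0.88, adjusted p = 0.001, edgeR). These are transcript levels, and the activity of the kinases was not measured.

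Of the MAP kinase feedback genes, dual-specificity phosphatases and Sprouty-type inhibitors of which some are induced by ERK signalling itself, 14 of 15 were tested. Dusp8, a phosphatase for JNK and p38, rose from 2.01 ± 0.271 to 5.3 ± 0.977 CPM (SD, n = 3 each; log2 fold change 1.39, adjusted p = 0.00162, edgeR), and at an adjusted p below 0.05 alone 6 were higher and 1 lower, against 29.5% of all genes in either direction. The list's median log2 fold change was 0.22. With library totals and on log2(TPM + 0.1) 3 of its genes were called higher, with medians of 0.48 and 0.56, and on log2(TPM + 1) 1 was, with a median of 0.28.

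**Figure D4:**
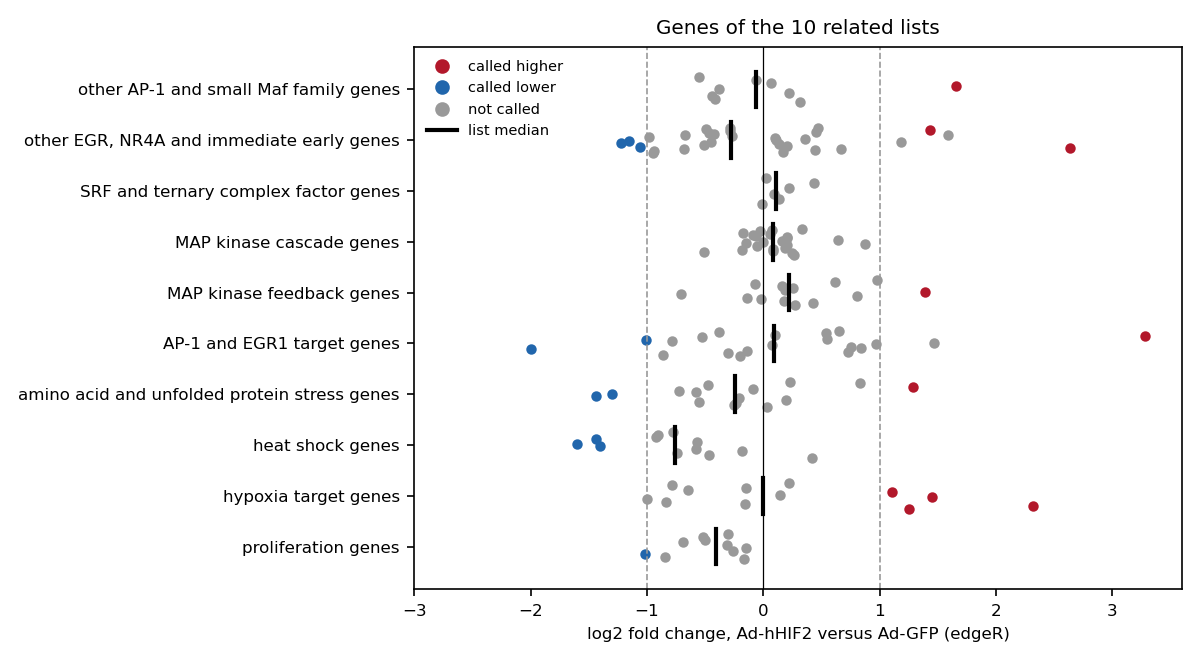
Log2 fold change of Ad-hHIF2 over Ad-GFP (x axis, edgeR) for each tested gene of the 10 related lists (y axis), with called genes coloured, list medians as black bars and dashed lines at a 2-fold change. The medians run from -0.76 for the heat shock genes to 0.22 for the MAP kinase feedback genes.

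Known targets of AP-1 and EGR1 split. Of 23 listed genes 20 were tested, 1 was called higher and 2 lower, and at an adjusted p below 0.05 alone 7 were higher and 5 lower (29.5% of all genes in either direction), with a median log2 fold change of 0.09. With library totals 4 were called higher and 1 lower (median 0.35), on log2(TPM + 1) 3 and 1 (median 0.24) and on log2(TPM + 0.1) 4 and 1 (median 0.45). DESeq2 called 1 higher and 1 lower, and edgeR without the count filter 2 and 1. Hmox1, the heme oxygenase induced by oxidative stress, was at 342.1, 337.7 and 313.5 CPM in Ad-GFP, 90.9, 80.0 and 77.7 CPM in Ad-hHIF2 and 497.5, 462.0 and 531.5 CPM in Ad-hHIF1 organoids. It fell by 1.99 on the log2 scale in Ad-hHIF2 organoids (SE 0.0872, edgeR adjusted p = 1.66e-06). Plaur, the urokinase receptor, fell by 1.01 (adjusted p = 0.000222, edgeR) and dropped under the 2-fold threshold in 4 of the 6 leave-one-out fits, with values from -1.10 to -0.94. Sprr1a, a cornified envelope gene, was at 30.9 ± 6.59 CPM in Ad-GFP, 33.0 ± 4.7 in Ad-hHIF2 and 70.4 ± 6.16 in the Ad-hHIF1 samples (SD, n = 3 each), and it was called lower in the direct comparison (log2 fold change -1.10, adjusted p = 0.00049, edgeR).

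Atf3 is commonly induced with other stress genes, which were read as a list. Of the 15 amino acid and unfolded protein stress genes, 1 was called higher and 2 lower in Ad-hHIF2 versus Ad-GFP organoids, and at an adjusted p below 0.05 alone 2 were higher and 8 lower, against 29.5% of all genes in either direction. The median log2 fold change was -0.24 and became 0.19 and 0.21 on the TPM scales, where limma called 0 lower. Ddit3 (CHOP), the stress-induced apoptosis factor, was at 155.3, 156.6 and 151.0 CPM in Ad-GFP, 60.8, 56.6 and 52.6 CPM in Ad-hHIF2 and 171.3, 165.9 and 192.0 CPM in Ad-hHIF1 organoids. It fell by 1.44 on the log2 scale (SE 0.0766, edgeR adjusted p = 5.19e-06). Ddit4 (REDD1), an inhibitor of mTORC1, fell by 1.30 (adjusted p = 3.64e-05, edgeR), and Sesn2, a leucine sensor, rose by 1.28 (adjusted p = 1.51e-05, edgeR). The endoplasmic reticulum chaperone Hspa5 was at -0.73 on the log2 scale (edgeR adjusted p = 0.000475) and was called lower in the direct comparison at -1.09 (adjusted p = 6.78e-06, edgeR).

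Of the 12 heat shock genes, 3 were called lower and 0 higher by edgeR in Ad-hHIF2 versus Ad-GFP organoids, and 11 had an unadjusted p below 0.05, where over all 14987 tested genes 2.90% were called higher, 3.83% lower and 41.2% had such a p. DESeq2 called the same numbers, and limma called 1 lower and 0 higher on both TPM scales. At an adjusted p below 0.05 alone 10 were lower and 1 higher, against 29.5% of all genes. The median log2 fold change was -0.76, and it was -0.23 and -0.30 on the TPM scales. Hspa1b was at 645.4 ± 69.4 CPM in Ad-GFP and 212.1 ± 5.7 in Ad-hHIF2 organoids (SD, n = 3 each), and fell by 1.60 on the log2 scale (adjusted p = 1.11e-05, edgeR). Hspb1 and Hspa1a fell by 1.43 and 1.41 (adjusted p = 1.57e-05 and 4.98e-05, edgeR). Hspa1a and Hspa1b are nearly identical copies, so their reads may have been divided between them.

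Of the 12 hypoxia target genes, Ankrd37, Egln3, Adm and Ndrg1 rose in Ad-hHIF2 organoids with log2 fold changes of 2.32, 1.45, 1.25 and 1.10 and adjusted p of 3.66e-05, 5.09e-06, 6.39e-06 and 2.99e-05 (edgeR). At an adjusted p below 0.05 alone 4 were higher and 3 lower, against 29.5% of all genes in either direction. Among the 3 was Egln1, an oxygen-sensing prolyl hydroxylase, at -0.996 (edgeR adjusted p = 0.00545), just under 2-fold. The list had 1 gene called lower with at least 10 counts in every sample, with all 9 samples in 1 fit, and without Ad-GFP replicate 4, Ad-hHIF2 replicate 1 or Ad-hHIF2 replicate 3. In the direct comparison Egln1 was called lower at -1.36 (edgeR adjusted p = 0.000417), but not by limma on the TPM scales, at -0.90 and -1.08 (adjusted p = 0.117 and 0.106). The list's median was 0 in edgeR for Ad-hHIF2 versus Ad-GFP and 0.42 and 0.43 on the TPM scales.

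Of the 10 proliferation genes, 1 (Ccna2) was called lower at -1.02 (edgeR adjusted p = 0.0147), a call that was lost without Ad-GFP replicate 4 (-0.76), without Ad-hHIF2 replicate 3 (-0.93), with the replicate block (-0.98), without a count filter (-0.98), with library totals (-0.76) and on both TPM scales (-0.04 and -0.18), and 4 were lower and 0 higher at an adjusted p below 0.05 alone. Their median log2 fold change was -0.41 and lay at 0.01 and 0.03 on the TPM scales. Whether the share of cycling cells has a part in the immediate early gene levels was not tested.

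In Ad-hHIF1 versus Ad-GFP organoids 0 genes of any of the 10 related lists were called by edgeR, DESeq2 or limma. With all 9 samples in 1 edgeR fit, or without the filter on low counts, 1 AP-1 and EGR1 target gene was called higher. The unadjusted p was below 0.05 in edgeR for 8.59% of all tested genes. In the lists it was so for 7 of 31 other immediate early genes, 6 of 19 targets, 5 of 15 stress genes, 5 of 14 feedback genes, 4 of 12 hypoxia target genes, 3 of 12 heat shock genes, 1 of 6 SRF and ternary complex factor genes, 1 of 23 MAP kinase cascade genes, 0 of 8 other AP-1 and Maf genes and 0 of 10 proliferation genes. Hmox1 was at 0.59 on the log2 scale (edgeR adjusted p = 0.207) and Sprr1a at 1.19 (edgeR adjusted p = 0.161), each with all Ad-hHIF1 samples above the controls.

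**Figure D5:**
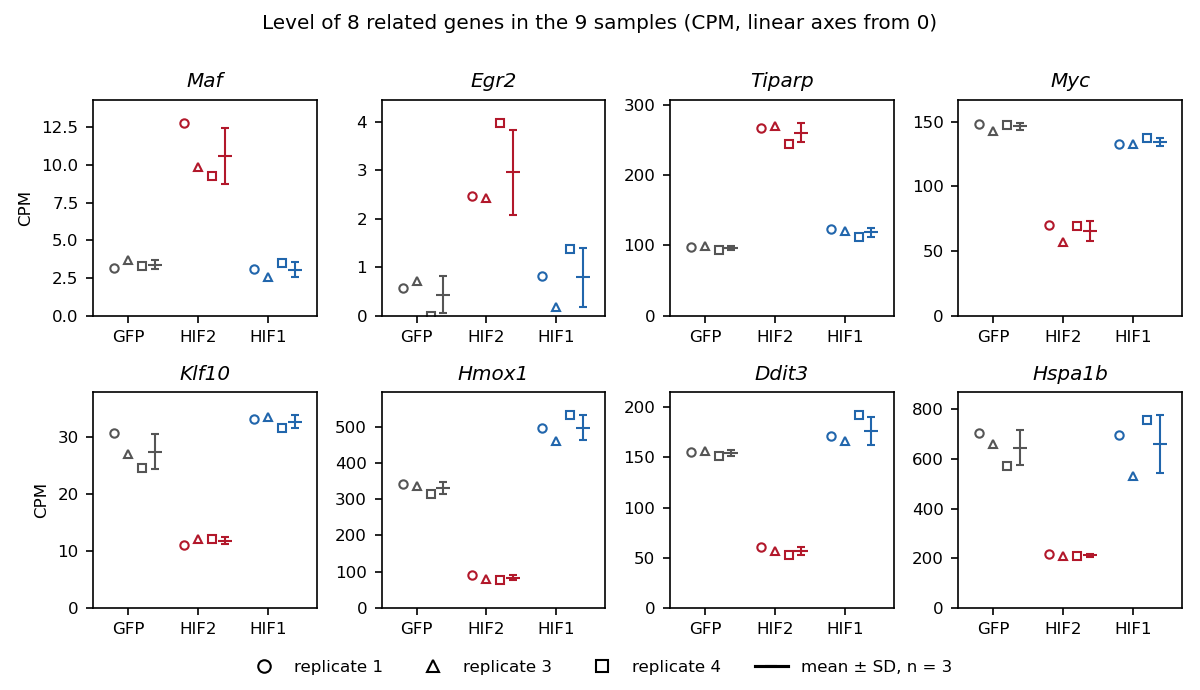
Level in CPM (y axis, linear and starting at 0) of 8 related genes in Ad-GFP, Ad-hHIF2 and Ad-hHIF1 organoids (x axis), with a symbol per replicate and a bar for the mean ± SD of 3 samples. Maf, Egr2 and Tiparp have their Ad-hHIF2 samples above the other 6, and Myc, Klf10, Hmox1, Ddit3 and Hspa1b have them below.

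Among 9258 tested genes, counted by Ensembl identifier, with a mean of at least 5 CPM, the 3 whose profile over the 9 samples was nearest to each called gene were found by the root mean square difference of centred log2(CPM + 0.5) values. For Egr1 these were the actin-bundling gene Espn, the cytokine gene Csf2 and Hmox1, at differences of 0.28, 0.282 and 0.307. For Atf3 they were the mitochondrial gene Higd1a, the glutathione synthesis gene Gclc and Ddit3, at 0.183, 0.194 and 0.243. For Fosb they were Acot2, the metallothionein gene Mt2 and the activin antagonist Fstl3, at 0.116, 0.139 and 0.151. Ddit3 and Hmox1 thus occurred both in the related lists and among these neighbours. For Fosl2 the nearest genes were the basement membrane gene Nid1, Atxn1 and the G protein gene Gna13, at 0.0537, 0.0633 and 0.0646. For Ier3 they were the prostaglandin E synthase gene Ptges, Arhgap29 and Impa2, at 0.0588, 0.0936 and 0.0949. Ptges was at 46.7 ± 5.05 CPM in Ad-GFP, 185.8 ± 2.54 in Ad-hHIF2 and 60.5 ± 1.42 in the Ad-hHIF1 samples (SD, n = 3 each), close to the order of levels of Ier3. The profiles share libraries and depth, and the likeness over 9 samples is a description.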

How the data were processed

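RNA sequencing tables of 9 samples were used. After discarding reads of low quality, the authors estimated abundance using RSEM (no version in the submitters' processing notes). The aligner, genome build and strandedness are not given in the sources used here. The deposited expected counts (RSEM estimates, not normalized; 85.7% were whole) were rounded. The TPM that the authors deposited served only in alternatives, and the deposited effective lengths served for CPM per kb, which replaced the planned TPM for comparing genes because TPM were deposited with few decimals.

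In R 4.3.3, edgeR 4.0.16 filtered the genes (filterByExpr), set TMM factors and ran the quasi-likelihood test. Benjamini-Hochberg adjustment covered all tested genes, and a call needed a 2-fold change with an adjusted p under 0.05. Comparisons with Ad-GFP used the 6 samples concerned, and the direct comparison used all 9. Standard errors were derived from the F statistic. The members and lists were chosen with earlier results of these data known. Named genes were the 10 members, per related list the genes called in any comparison (at most 6 a comparison) or otherwise the 2 with the smallest p, the 3 nearest profiles of each called member, Epas1, Hif1a, Gm10800 and Gm26870, less 2 related genes that are not reported here. Library totals were 21722618 to 51119041, which with 3 samples a group sets the precision. Alternatives were no count filter, a minimum of 10 counts per sample, median-ratio factors, library totals, DESeq2 1.42.0, limma 3.58.1 on log2(TPM + 1) and log2(TPM + 0.1), the replicate block, other sample sets and each sample left out. Methods were tested on simulated data. Python 3.11.15, pandas 2.3.3 and matplotlib 3.10.9 were used. Positions are those of GENCODE M21 by Ensembl identifier. The authors' own comparisons were not used here.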

Additional observations from a re-analysis of the deposited data

Results flagged for a closer look

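For 5 of the 10 genes every Ad-hHIF2 sample lay below every Ad-GFP sample while every Ad-hHIF1 sample lay above, a placement that 1.45% of the 14731 genes tested in both comparisons had. The log2 fold change of Ad-hHIF2 versus Ad-hHIF1 was -2.77 for Egr1, -2.13 for Atf3, -1.51 for Fosb, -0.64 for Fos and -0.61 for Ier2. The opposite placement itself was not tested, since the genes had been selected on these samples and both comparisons share the 3 Ad-GFP samples.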

How the results depend on the processing

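The median of all genes for Ad-hHIF2 versus Ad-GFP was -0.01 with TMM, 0.24 with library totals only, 0.19 on log2(TPM + 1), 0.39 on log2(TPM + 0.1), -0.13 without a filter and -0.16 with DESeq2; for Ad-hHIF2 versus Ad-hHIF1 it was 0.17, 0.12 and 0.24 on the first 3 alternatives. In Ad-hHIF2 versus Ad-GFP, the genes called lower numbered 3 with TMM or median-ratio factors, 2 with library totals, 0 on log2(TPM + 1) and 1 on log2(TPM + 0.1), the last 2 with another tool, pseudocount and filter as well. In Ad-hHIF2 versus Ad-hHIF1, log2(TPM + 1) gave 1 higher and 1 lower. The cause was not tested.

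Reversed values in Ad-hHIF2 versus Ad-GFP were, on log2(TPM + 1) and log2(TPM + 0.1), 0.107 and 0.138 for Fos, 0.094 and 0.132 for Jun, 0.10 and 0.118 for Ier2, and 0.320 and 0.394 for Fosl1, which are below the median of all genes on the same scale except for Fosl1. With library totals Fosl1 was at 0.237, and leaving out 1 sample gave -0.121 to 0.102, with 0.097 without Ad-GFP replicate 4 and 0.102 without Ad-hHIF2 replicate 3. In Ad-hHIF1 versus Ad-GFP, Jun was at 0.048 and 0.077 on the TPM scales and -0.213 to 0.025 with 1 sample left out, the latter without Ad-hHIF1 replicate 1. Fosl2 was at -0.001 with at least 10 counts in every sample, -0.037 and -0.019 without Ad-GFP replicates 1 and 3, and -0.021 without Ad-hHIF1 replicate 1, in a range of -0.037 to 0.056. Fosl1 ranged from -0.006 (without Ad-GFP replicate 1) to 0.207 and Junb from -0.055 (without Ad-hHIF1 replicate 4) to 0.208. In Ad-hHIF2 versus Ad-hHIF1, Fosl1 was at 0.079 with library totals and 0.117 and 0.127 on the TPM scales, and Jun at 0.046 and 0.055 on those scales. The cause was not tested.

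Calls lost in Ad-hHIF2 versus Ad-GFP were Egr1 at -0.61 on log2(TPM + 1), Atf3 at -0.74 and -0.94 and Fosb at -0.05 and -0.29 on the TPM scales, and Fosb at -0.80 with library totals. Leaving out 1 sample gave 2 to 3 genes lower and 2 higher.

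With the replicate number as a block (replicate block), the calls in Ad-hHIF2 versus Ad-GFP again numbered 2 up and 3 down among the 10, and Egr1 was at -2.38. Over all genes the counts were 437 higher and 599 lower, against 435 and 574. Same-numbered samples correlated at 0.09, 0.088 and 0.229 in their deviations from the group means, and not every sample correlated best with its own number, so the numbers were not taken to pair the samples. Over the related genes' 42 called values, checked after the data were seen, 0 changed sign, 11 lost the call with library totals and 24 and 18 on the TPM scales. With the replicate block 1 of them, Ccna2 at -0.98, lost the call.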
